A study of Arabidopsis thaliana with 4 samples.

Results

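The genes described here are 9 heat shock protein genes and the gene of the heat shock factor HSFA2 of Arabidopsis thaliana, chosen by locus and making up 10 of the 30361 gene models on the array. Heat shock factors are transcription factors that bind heat shock elements in promoters. In plants the HSFA1 factors start the response to heat, HSFA2 is induced by them and prolongs it, and the genes they activate encode chaperones. Small heat shock proteins hold unfolding proteins in a soluble form, HSP70 refolds them, and HSP101 pulls proteins back out of aggregates.

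RNA came from 7-day-old seedlings of the accession Landsberg erecta (Ler) grown on MS medium plates, and each of 4 single-colour NimbleGen arrays held 1 sample. The wild-type group was Ler with normal flowering time, and the TEKi group was late-flowering T3 plants in the same background with an artificial microRNA (amiTEK), labelled as a knockdown of TEK, spelled out in the series title as TRANSPOSABLE ELEMENT KILLER. The labels state 2 arrays a group and separate cultures for the replicates. P-values measure the spread between such cultures only if the arrays are labelled correctly. The labels do not state the promoter of amiTEK, the number of lines, the growth temperature or the hour of harvest. No label names a heat treatment.

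The array files and the value table of the whole series hold the same intensities but do not give 2 of the arrays the same label. Array 1 was wild-type 1 and array 4 was TEKi 2 in both. Array 2 is wild-type 2 by its file and TEKi 1 by the value table, and array 3 is TEKi 1 by its file and wild-type 2 by the value table. All 30361 intensities of each array matched its value-table column to within 1e-09. The sample descriptions do not help, since all 4 call their sample the first of the wild-type replicates. No array was relabelled from its values, and the 10 genes and each list are given with both sets of labels, first those of the array files. If 1 set is right, each group of the other set holds 1 wild-type and 1 TEKi array. The standard errors and p-values of that other set then include the difference between wild-type and TEKi. TEK itself (AT2G42940) had intensities of 13406, 14118, 9864 and 13770 on arrays 1 to 4 and did not settle the labels. Its log2 difference, TEKi minus wild-type, was -0.24 with the array-file labels, where the groups overlapped. It was 0.28 with the value-table labels, where both TEKi arrays lay above both wild-type arrays (27.7% of all genes). TEKi 2 was 1.03-fold above wild-type 1, so a clear drop of TEK RNA was not seen with either set. Leaf and cotyledon markers were between 49080 and 64047 on all arrays and root markers between 270 and 27946, with none at 0. The highest intensity was 64046.8, shared by 342 to 419 genes on each array, and the lower quartile of all genes lay between 456 and 496. Differences among genes near the highest value are compressed, and no detection flags were used for dim ones.

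The main pattern was a higher level of the heat shock genes on arrays 1 and 2, those filed as wild-type, than on arrays 3 and 4. All 10 genes had a lower mean log2 intensity in TEKi with the array-file labels, as did 49% of all genes, with a median log2 difference of -1.50 against 0.0060 over all 30352 genes tested. In 7 of the 10, both wild-type arrays lay above both TEKi arrays, which was so for 14.7% of all genes, and in none was it the reverse (15.3% of all genes). The value-table labels put the same genes between -0.35 and 4.05, with a median of 0.16 against 0.090 over all genes, and 2 of the 10 were below 0 (39.5% of all genes). Each group then held 1 array filed as wild-type and 1 filed as TEKi, and HSP22.0 was the 1 gene whose groups did not overlap. These seedlings are mixtures of cell types, so fewer cells of a type and less RNA per cell cannot be told apart.

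**Figure D1:**
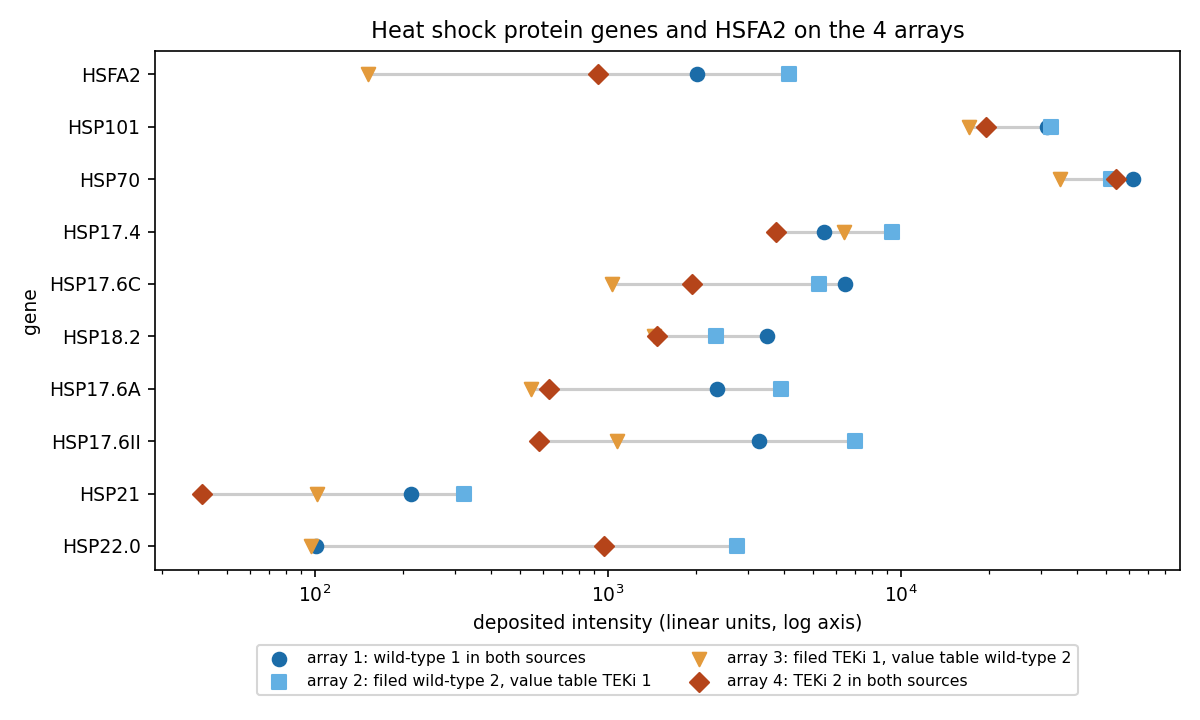
Deposited intensity of each of the 10 genes (rows) on each of the 4 arrays (log axis). Blue symbols are the arrays filed as wild-type and orange symbols those filed as TEKi; the blue symbols lie to the right of the orange ones in 7 genes, and HSP70, HSP17.4 and HSP22.0 are the exceptions.

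HSFA2 (AT2G26150, chromosome 2, 11142760 to 11144474, genome release 6) encodes the regulator among the 10 genes. Its intensity was 2015 on array 1, 4153 on array 2, 152 on array 3 and 923 on array 4. Both arrays filed as wild-type were thus above both filed as TEKi, and the highest exceeded the lowest by 27.3-fold. With the array-file labels the log2 difference was -2.95 (SE 1.10, n = 2 per group, limma adjusted p = 1), or 7.73-fold lower in TEKi. It was -1.65 without TEKi 1 and -4.25 without TEKi 2, and without TEKi 1 it was smaller in size than those of HSP17.6A, HSP17.6II and HSP21. The test is limma's moderated linear model on log2 intensity, adjusted over all genes tested, with SE the moderated standard error and a threshold of 0.05. The gap between the arrays filed as TEKi was itself 6.07-fold, and array 3 lay below the lower quartile of all genes. With the value-table labels the difference was 1.82 (SE 1.64, adjusted p = 0.723), and the groups overlapped.

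The 2 large chaperones were bright on every array. HSP101 (AT1G74310, chromosome 1, 27939597 to 27943851) encodes the cytosolic ClpB-type disaggregase needed for acquired heat tolerance. It had 31597 and 32563 on the arrays filed as wild-type and 17030 and 19528 on those filed as TEKi. The groups were apart, with a 1.76-fold lower level in TEKi (log2 difference -0.81, SE 0.180, adjusted p = 1). The replicates of each group lay close together, and HSP101 had the smallest SE of the 10. Its difference was 0.12 (SE 0.462) by the value-table labels.

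HSP70 (AT3G12580, chromosome 3, 3991268 to 3993798) encodes a heat-inducible cytosolic HSP70. It had 62093 and 52058 against 34813 and 54191. Array 3 was low and the other 3 arrays were within 1.19-fold of one another, so the groups overlapped, and array 1 was close to the highest intensity. The log2 difference was -0.39 with the array-file labels (SE 0.313, adjusted p = 1), -0.069 without TEKi 1 and -0.71 without TEKi 2, and it was 0.19 with those of the value table (SE 0.350).

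Class I small heat shock proteins of the cytosol were represented by HSP17.4, HSP17.6C and HSP18.2. HSP17.6C (AT1G53540, chromosome 1, 19984130 to 19984775) had 6452 and 5254 on the arrays filed as wild-type and 1030 and 1932 on those filed as TEKi. It was 4.13-fold lower in TEKi (log2 difference -2.05, SE 0.405, adjusted p = 1), with the groups apart. HSP18.2 (AT5G59720, chromosome 5, 24079803 to 24080499) had 3496 and 2347 against 1436 and 1471. Its groups were also apart, with a smaller log2 difference of -0.98 (SE 0.276, adjusted p = 1). HSP17.4 (AT3G46230, chromosome 3, 16994886 to 16995826) had 5448 and 9303 against 6422 and 3763. Here array 3 exceeded array 1, the groups overlapped, and the log2 difference was -0.53 (SE 0.455), from -0.92 to -0.15 without single arrays. By the value-table labels these 3 genes had log2 differences of 0.31 (HSP17.6C), -0.27 (HSP18.2) and 0.00043 (HSP17.4), with overlapping groups in each.

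The class II genes HSP17.6A and HSP17.6II also encode cytosolic small heat shock proteins and lie 1168 bases apart on chromosome 5. HSP17.6A (AT5G12030, 3884108 to 3884738) had 2364 and 3901 on the arrays filed as wild-type and 548 and 631 on those filed as TEKi. HSP17.6II (AT5G12020, 3882238 to 3882939) had 3286 and 6988 against 1078 and 581. Both genes were lower on each TEKi array than on either wild-type array, and both were highest on array 2, but their lowest arrays differed. The log2 difference was -2.37 for HSP17.6A (SE 0.334, adjusted p = 1) and -2.60 for HSP17.6II (SE 0.572, adjusted p = 1). Under the value-table labels HSP17.6A was at 0.46 and HSP17.6II at 0.098, with SE of 1.28 and 1.49. Genes of a class have similar sequences, and whether a probe also binds a related transcript was not tested.

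Both organelle small heat shock protein genes had dim arrays. HSP21 (AT4G27670, chromosome 4, 13818876 to 13819977), whose product protects chloroplasts, had 212 and 323 on the arrays filed as wild-type and 102 and 41.1 on those filed as TEKi. Its groups were apart (log2 difference -2.02, SE 0.583, adjusted p = 1), but all 4 values lay below the lower quartile of all genes. Its value-table difference was -0.35 (SE 1.20). HSP22.0 (AT4G10250, chromosome 4, 6370339 to 6371286), a small heat shock protein of the endoplasmic reticulum, had 101 on array 1, 2767 on array 2, 96.9 on array 3 and 972 on array 4.

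HSP22.0 was high on arrays 2 and 4 and low on arrays 1 and 3, which is the division of the value-table labels. The arrays labelled TEKi there were 16.6-fold above those labelled wild-type (log2 difference 4.05, SE 0.590, n = 2 per group, limma adjusted p = 0.0945). This missed the threshold of 0.05, which it passed when the variance was fitted with a trend on level (adjusted p = 0.0333). The adjusted p was 0.389 with plain per-gene variance and 0.149 with a replicate block, which here holds the array-file groups. Without single arrays the difference ran from 3.30 (without TEKi 1) to 4.81 (without TEKi 2). Both wild-type values were dim. With the array-file labels its difference was -0.78 (SE 2.28, adjusted p = 1), and it became 1.61 without wild-type 2 and 0.88 without TEKi 1.

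**Figure D2:**
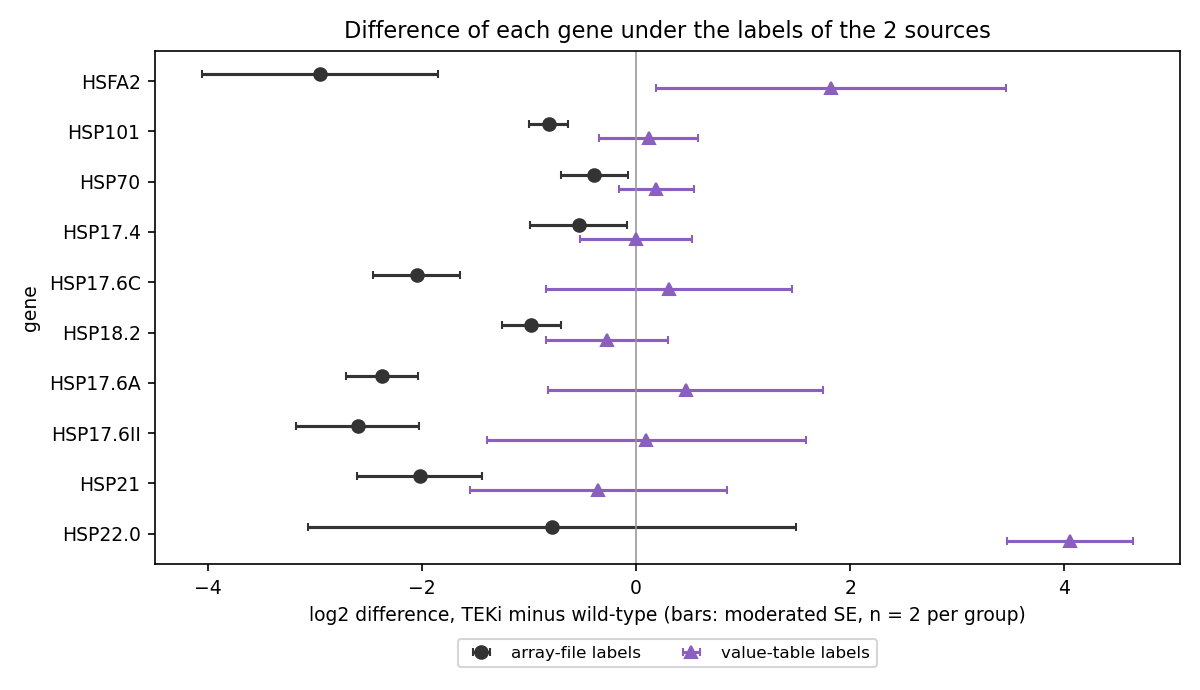
Log2 difference, TEKi minus wild-type, of each gene with the array-file labels (circles) and the value-table labels (triangles); bars are the moderated SE, n = 2 arrays per group. All 10 circles lie below 0, and HSP22.0 has the triangle farthest from 0, at 4.05.

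None of the 10 genes passed the test over all genes with either set of labels. With the array-file labels limma called 0 of 30352 genes at adjusted p = 0.05 (a background of 0% of genes), and a fit with plain per-gene variance also called 0. An unadjusted p under 0.05 was reached by 1398 genes in all (4.61%). By that measure 6 of the 10 genes were lower in TEKi and none was higher, where 2.24% of all genes were lower and 2.37% higher: HSP101, HSP17.6C, HSP18.2, HSP17.6A, HSP17.6II and HSP21. A level lower by over 2-fold was seen in 5 of the 10 (HSFA2, HSP17.6C, HSP17.6A, HSP17.6II and HSP21) and in 4.25% of all genes, and a level higher by that much in none of the 10 (3.99%). The value-table labels gave 674 called genes (2.22%; 1.95% lower and 0.273% higher in TEKi), and none of the 10 was among them. That count was 0 with plain per-gene variance, with a replicate block and without any 1 array. There 1 of the 10, HSP22.0, had an unadjusted p under 0.05, against 14.4% of all genes (6.94% lower, 7.5% higher). HSFA2 and HSP22.0 were higher there by over 2-fold (7.23% of all genes) and none of the 10 lower by that much (7.74%). In addition 1 of the 10 had both TEKi arrays above both wild-type arrays, against 27.7%. None had both wild-type arrays above, against 17.1%.

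The spread of a gene over the 4 arrays can be divided into a part along the array-file labels, a part along the value-table labels and a remainder. For the 10 genes the median share of the sum of squares of log2 intensity was 82.5% along the array-file labels, 3.02% along the value-table labels and 8.05% in the remainder. Over all genes the median shares were 22.6%, 37.5% and 16.7%. HSP101 (97.0%) and HSP17.6A (95.2%) had the highest shares along the array-file labels. HSFA2 was divided, with 68.9% along those labels and 26.3% along the value-table labels. HSP22.0 had 93.5% along the value-table labels, and in HSP70 and HSP17.4 the remainder was the largest part (51.5% and 67.6%).

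**Figure D3:**
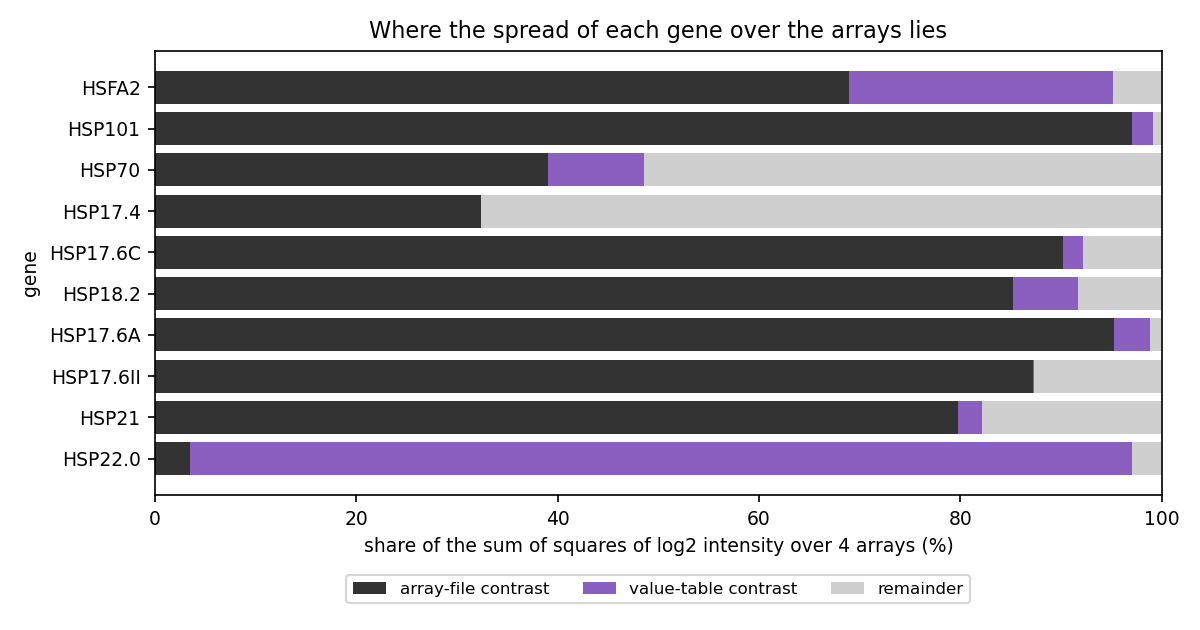
Share (%) of the sum of squares of log2 intensity over the 4 arrays that lies along the array-file contrast (black), along the value-table contrast (purple) and in the remainder (grey), for each gene. Black is the largest part in 7 of the 10 genes, and purple in HSP22.0 alone.

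Single pairs of arrays can be read without either grouping. Arrays 1 and 3 share a group in the value table, and array 1 was higher in 9 of the 10 genes (48.4% of all genes). Arrays 2 and 4 share the other group there, and array 2 was higher in 9 of the 10 (49.9% of all genes). The median ratio of the 10 genes was 2.26-fold for array 1 over array 3 and 2.78-fold for array 2 over array 4, and for HSFA2 these ratios were 13.3-fold and 4.50-fold. Under the value-table labels these gaps are differences between replicates of a group. The array-file labels had gaps between replicates too. Array 2 was above array 1 in 7 of the 10 genes (56.9% of all genes), with a median ratio of 1.58-fold. Array 4 was above array 3 in 7 of the 10 (56.1% of all genes), with a median ratio of 1.15-fold. For HSFA2 these ratios were 2.06-fold and 6.07-fold, and for HSP22.0 array 2 was 27.5-fold above array 1. The only arrays whose labels are the same in both sources are wild-type 1 and TEKi 2. TEKi 2 was below wild-type 1 in 9 of the 10 genes (42.2% of all genes), from 1.15-fold for HSP70 to 5.66-fold for HSP17.6II, and HSP22.0 was 9.65-fold above. That comparison has 1 array on each side and no test.

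Array 2 gave the highest value in 7 of the 10 genes and array 1 in the other 3, while array 3 gave the lowest in 7 and array 4 in the other 3. Over all genes array 2 was highest in 29.0% and array 1 in 21.4%, and array 3 was lowest in 30.5% and array 4 in 18.8%. HSP17.4, HSP17.6II and HSP21 were those lowest on array 4. No gene had its highest value on an array filed as TEKi.

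Other genes of the heat response were taken as lists from general knowledge, by locus. Of 10 further loci counted as small heat shock proteins, 9 were lower in TEKi with the array-file labels (median log2 difference -1.01, value-table median 0.45). In 6 both wild-type arrays lay above both TEKi arrays (14.7% of all genes), and in none was it the reverse (15.3%). By the value-table labels 1 had both wild-type arrays above (17.1% of all genes) and 3 had both TEKi arrays above (27.7%). None passed the test with either set. AT2G19310 had 51336 and 53470 on the arrays filed as wild-type and 23658 and 27662 on those filed as TEKi. HSP23.6, a mitochondrial small heat shock protein, had 1006 and 2277 against 510 and 332. AT1G07400 had 6527 and 7804 against 2095 and 4183, and AT2G29500 had 10140 and 20637 against 7957 and 3803. In all 4 the groups were apart with the array-file labels. They were named for the smallest unadjusted p of the list with those labels, a choice that favours groups lying apart. AT4G21870 had its higher values on arrays 1 and 3, at 24831 and 22315, and its lower ones on arrays 2 and 4, at 9450 and 5934 (value-table log2 difference -1.65, adjusted p = 0.140).

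Of 20 other heat shock factors 11 were lower and 9 higher in TEKi with the array-file labels, with a median of -0.097 and none called. The value-table labels gave 6 lower and 14 higher, with a median of 0.16. The HSFA1 activators lay on both sides of 0: HSFA1A had a log2 difference of -0.17 (SE 0.200), HSFA1B 0.36 (SE 0.281), HSFA1D 0.22 (SE 0.182) and HSFA1E -0.32 (SE 0.264). HSFB2B, a repressor of heat-inducible genes, had 10501 and 10467 on the arrays filed as wild-type and 4310 and 7065 on those filed as TEKi (log2 difference -0.93, SE 0.321). HSFA8 lay on the other side, at 18202 and 15998 against 24853 and 28979, as did HSFC1, at 4003 and 5551 against 7215 and 11551. HSFA9, the factor of maturing seeds, was dim throughout, at 87.6 and 67.2 against 282 and 124. None of these single values passed (adjusted p = 1).

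Of 14 further large chaperones 7 were lower and 7 higher in TEKi with the array-file labels, with a median of -0.086, and 4 were lower and 10 higher with those of the value table, with a median of 0.11. HSP90.1, the heat-inducible HSP90 of the cytosol, had 55456 and 49875 on the arrays filed as wild-type and 28225 and 30329 on those filed as TEKi (log2 difference -0.85, SE 0.177, adjusted p = 1). HSP70T-2 had 11909 and 17657 against 4332 and 7970, and Hsp70b had 6960 and 9950 against 4715 and 6600. The mitochondrial chaperonin gene HSP60-2 had 59219 and 64047 against 49818 and 52179. The constitutive HSC70-1 was between 60987 and 64047 on all 4 arrays, near the highest intensity. Overlapping groups under the array-file labels were found for HSP90.2 and HSP90.3: by the value-table labels HSP90.2 was at 0.74 (SE 0.155, adjusted p = 0.174) and HSP90.3 at -0.51 (SE 0.176, adjusted p = 0.349).

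Of 8 co-chaperone and factor-binding genes 7 were lower in TEKi with the array-file labels, with a median of -0.12, and 7 were higher with the value-table labels, with a median of 0.19. AT2G20560, annotated with heat shock protein binding, had 4275 and 10045 against 1627 and 3767. ROF2, a peptidyl-prolyl isomerase that binds HSP90, had 18570 and 40432 against 9660 and 18016. Both were highest on array 2, as HSFA2 was. Fes1A, a co-chaperone of HSP70, had 7003 and 15415 against 6497 and 8766, and BAG6 had 16533 and 19743 against 14643 and 18124, with overlapping groups in both.

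Of 6 other heat-induced genes, 4 had both arrays filed as wild-type above both filed as TEKi (14.7% of all genes) and 2 the reverse (15.3%), with a median of -1.18. The groups of all 6 overlapped under the value-table labels, where 1 was lower and 5 were higher, with a median of 0.56. APX2, a heat-induced cytosolic ascorbate peroxidase and target of HSFA2, had 2104 and 2871 on the arrays filed as wild-type and 205 and 474 on those filed as TEKi (log2 difference -2.98, SE 0.528, adjusted p = 1). HSA32, which maintains acquired heat tolerance, had 14520 and 15946 against 5589 and 7518. GolS1, a galactinol synthase, had 41693 and 56419 against 9086 and 33527. MBF1C, a coactivator of the heat response, had 44270 and 55903 against 13761 and 37455. In these 4 genes array 3 was the lowest and array 2 the highest. The reverse was seen in DREB2A, an activator in drought and heat, at 4800 and 5419 against 5989 and 7723, and in DREB2C, at 2175 and 1149 against 4473 and 3740.

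Lists of other stress responses had medians near 0 with the array-file labels. Several of their genes were near the highest intensity, where differences are compressed, so these medians are not a clean contrast to the heat shock genes. Of 10 genes of the unfolded protein response of the endoplasmic reticulum 7 were lower and 3 higher, with a median of -0.083, and by the value-table labels 2 were lower and 8 higher, with a median of 0.13. The co-chaperone gene ERDJ3A had 10764 and 14903 against 7783 and 8162, while BIP1, the HSP70 of that compartment, had 55303 and 51078 against 63917 and 62061. CRT1a had 51156 and 60601 against 61538 and 62962, and SDF2 had 35902 and 39875 against 32944 and 35711. Of 6 touch and wounding genes 5 were lower and 1 higher, with a median of -0.13, and by the value-table labels 3 were lower and 3 higher, with a median of -0.035. TCH3 had 64047 on arrays 1, 2 and 4 and 57259 on array 3. WRKY40 had 15863 and 5473 against 4203 and 8784, ZAT12 had 5657 and 7984 against 2542 and 10312, and TCH4 had 63266 and 47734 against 53411 and 46680.

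**Figure D4:**
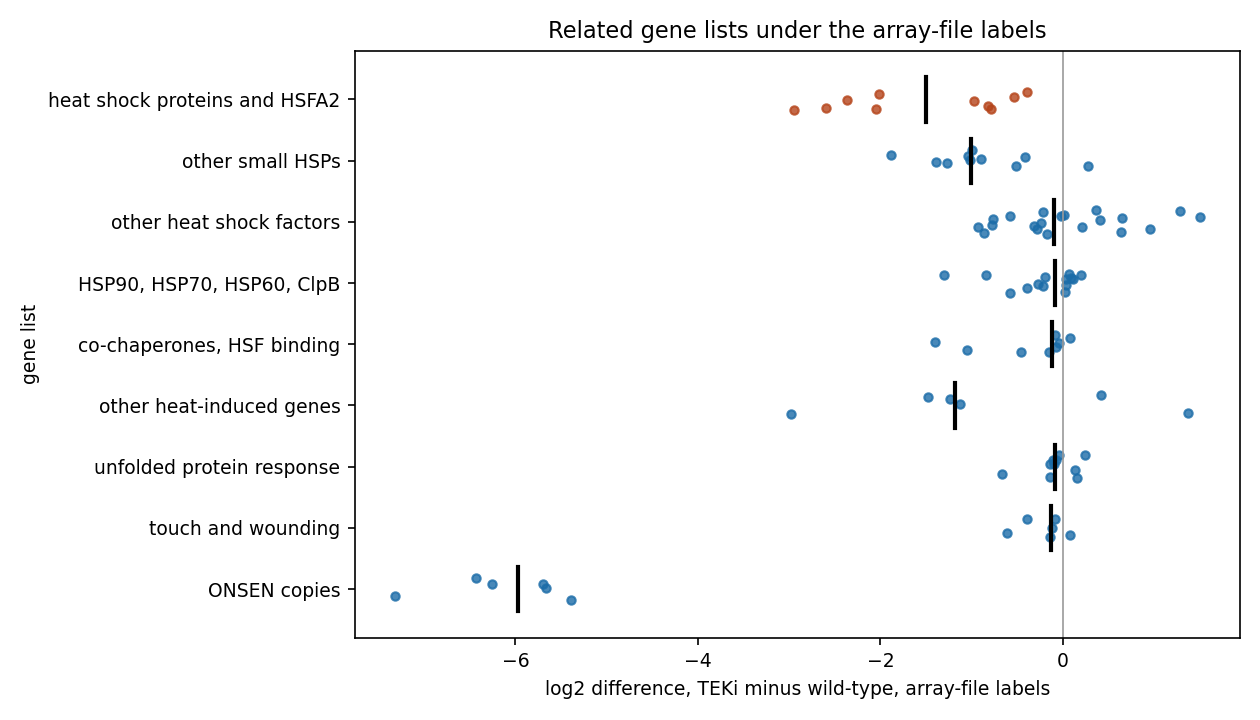
Log2 difference, TEKi minus wild-type with the array-file labels, of each gene (points, jittered vertically) in the 10 heat shock genes and in 8 related lists; black bars are list medians and the grey line is the median of all genes. Medians run from -5.98 for the ONSEN copies to -0.083 for the unfolded protein response.

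ONSEN, a Copia retrotransposon of Arabidopsis known for activation by heat, was measured by 6 models that the deposited annotation calls copia-like. On all 6 the arrays filed as wild-type were far above those filed as TEKi, with a median log2 difference of -5.98. Over all genes, both arrays filed as wild-type lay above both filed as TEKi in 14.7%. All 6 lay below the lower quartile of all genes on arrays 3 and 4, so the size of that difference rests on dim values. By the value-table labels 3 were lower and 3 higher, all with overlapping groups, and the median was 0.013. AT5G13205 had 12254 and 10212 against 82.3 and 59.8, AT3G59720 had 14548 and 12087 against 289 and 227, AT3G32415 had 8816 and 9396 against 175 and 269, and AT1G11265, whose model stands for 3 loci, had 12826 and 9194 against 84.4 and 187. The copies are related, and whether a probe binds several of them was not tested. Array 1 was above array 2 in these 4 models except AT3G32415, whereas HSFA2 was higher on array 2.

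Some small heat shock proteins and HSP101 are also made in maturing seeds, so seed markers were set beside them. The summed intensity of 5 seed markers was 39683 on array 1, 14778 on array 2, 37106 on array 3 and 33762 on array 4. The markers were not alike over the arrays. The seed maturation genes GEA6, at 3601, 4286, 5785 and 6485 on arrays 1 to 4, and EM1, at 5188, 7192, 3692 and 18062, were higher on array 2 than on array 1. The oil body gene OLEO1 had 14132, 2210, 12713 and 7485, and the storage protein gene SESA1 had 1091, 351, 398 and 342. None of the 5 was at 0. CRA1, a storage protein gene, had 15671, 739, 14517 and 1388 on arrays 1 to 4, and its value-table log2 difference was -3.90 (SE 0.377, limma adjusted p = 0.0464). That call was lost, as were all under those labels, with plain per-gene variance, a replicate block or any 1 array left out. The part of seed transcripts in the heat shock values was not tested.

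The 10 genes outside all lists whose centred log2 values lay nearest to the mean profile of the heat shock genes, by Euclidean distance over the 4 arrays, were within 0.0866 to 0.180. The nearest were AT1G40103, annotated as a pseudogene, at 227, 376, 79.8 and 120 on arrays 1 to 4, and AT2G42730, at 831, 1534, 309 and 436. SUVH7 and UGT84B1 were among the others. Of the 10 nearest, 5 lay below the lower quartile on all arrays. They were drawn from 30247 candidates on 4 arrays, and the match is a description with no test. The heat shock genes themselves lay 0.847 (HSP17.6A) to 3.54 (HSP22.0) from their mean profile. A gene near that mean need not resemble any single heat shock gene.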

How the data were processed

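For every gene model the authors deposited a single linear intensity on each array, made with RMA per the submitters' processing notes (no version or settings are named there). Each of the 10 genes rests on 2 probe pairs (HSP70 on 3) per the file headers, and none shares its model with another locus. The annotation column gives coordinates of genome release 6. Symbols were updated for the 29976 models found in a RefSeq table, whose assembly (TAIR10.1) differs, so none of its coordinates were used. HSP17.6C has no name there.

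Leaving out 9 genes listed at 0 on an array, log2 values were taken with no pseudocount or filter. The TEKi and wild-type groups were then compared with limma 3.58.1 in R 4.3.3 (lmFit and eBayes, 2-sided) over all 30352 genes, with Benjamini-Hochberg adjustment. SE is the moderated standard error. The number of arrays limits the precision of each value, beside the compression of bright genes and the unknown background of dim ones. The procedure was checked on simulated data with independent noise and known groups. That check does not cover arrays with a wrong label. The fit was repeated with 1 array left out at a time, a replicate block, the value-table labels, quantile normalization or median centring, dim genes removed, 50 added before log2, a mean-variance trend or plain variance, and a threshold of 0.01. Promoter motifs were not analysed here, since no sequence was used.

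The genes and the 8 lists were chosen with earlier results of these data known, so they are no independent support for a direction. Up to 4 genes of each list, those with the smallest unadjusted p of the array-file fit, were named, beside HSFA1A, HSFA1B, HSFA1D, HSFA1E, HSP90.1, MBF1C and DREB2A. This rule favours genes that divide along the array-file labels over genes that divide along the value-table labels. HSC70-1, HSP90.2, HSP90.3, AT4G21870, TEK and the 5 seed markers were named after their values were seen.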

Additional observations from a re-analysis of the deposited data

How the results depend on the processing

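Under the array-file labels the count of calls was 0 in each alternative run (the value-table labels gave 674), and all 10 genes but HSP22.0 kept a difference below 0 under the others. The median of the 10 (-1.50) ran from -2.11 (without wild-type 1) to -1.28 when single arrays were left out, was -0.53 for the 3 genes left without those below the median level, and 0.16 with the value-table labels. Those labels gave 1.82 for HSFA2, 0.12 for HSP101, 0.19 for HSP70, 0.00043 for HSP17.4, 0.31 for HSP17.6C, 0.46 for HSP17.6A, 0.098 for HSP17.6II and 4.05 for HSP22.0. HSP18.2 (-0.27) and HSP21 (-0.35) stayed below 0 with them. With the array-file labels HSP22.0 ran from -3.17 to 1.61 without single arrays.

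With the value-table labels the 674 calls became 191 without genes below the median level, 1150 with a mean-variance trend and 0 with plain per-gene variance, with a replicate block, at adjusted p = 0.01 or without any 1 array. The median of the 10 genes ran from -0.51 to 1.08 without single arrays. The difference of HSP17.4 was -0.0013 after quantile normalization. Without single arrays every gene but HSP22.0 took both signs: HSFA2 from -0.042 to 3.69, HSP101 from -0.33 to 0.57, HSP70 from -0.23 to 0.61, HSP17.4 from -0.65 to 0.65, HSP17.6C from -1.02 to 1.63, HSP18.2 from -0.91 to 0.37, HSP17.6A from -0.85 to 1.78, HSP17.6II from -1.70 to 1.89 and HSP21 from -1.84 to 1.14. HSP22.0 ran from 3.30 to 4.81. Under the mean-variance trend it passed (adjusted p = 0.0333). Fewer samples or genes entered where arrays or dim genes were left out, and otherwise the cause was not tested.

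The labels do not say that equal replicate numbers mark a shared culture or day, and whether the numbers pair the samples is not known. Arrays with the same replicate number in either set of labels form a group of the other set. A replicate block therefore holds the groups of the other set and cannot tell a shared culture from those labels. With a replicate block 0 genes were called with either set of labels. Across genes, deviations of same-numbered arrays correlated at 0.650 with the array-file labels and 0.112 with those of the value table. These correlations cannot tell pairing from the other set of labels either. Signal over background is unknown, which limits HSP21, HSP22.0 and HSFA2 most.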
